A study of Mus musculus with 3 samples.

Results

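The genes described here are 6 that encode secreted proteins of the otoconia and of the acellular membranes of the inner ear: Oc90, Otol1, Otog, Otogl, Tecta and Tectb. They were taken by symbol from the 32285 features of droplet-based single-cell RNA sequencing of mouse otic vesicles at E10.5, the stage at which the future inner ear is a closed epithelial sac. The set was proposed with the difference between the genotypes in these same libraries in view. The values that compare the genotypes over all otic cells are therefore descriptions without a test. Tests are given for how the genes differ between groups of otic cells, and for whether the genotype difference itself differs between those groups.

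One library was made from Sox9Y440X/+ embryos, which carry 1 mutant allele of the transcription factor gene Sox9 and are labelled CD. The other libraries are wild type (WT replicates 1 and 2). No further allele or treatment is named in the labels for any of the 3 libraries. Each library comes from pooled vesicles, and the number of embryos in a pool is not given in the sources used here.

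Otoconia are the calcium carbonate crystals that load the gravity-sensing utricle and saccule, and they grow on a protein matrix that the epithelium secretes. Oc90 (otoconin-90) is the main soluble protein of this matrix, and Otol1 (otolin-1) is a collagen-like scaffold protein that binds it. Otog (otogelin) and Otogl (otogelin-like) are mucin-like glycoproteins of the membranes that cover the sensory hair cells. Tecta and Tectb encode the tectorins, which are structural proteins of the tectorial membrane of the cochlea. Sox9 and its relatives Sox8 and Sox10 are DNA-binding proteins of the early otic epithelium.

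The upstream sequences of the scaffold gene and of the first membrane gene are shown because both genes are transcribed in these cells at a stage before any crystal or membrane has formed. They come from the RefSeq table of build GRCm38.p6, which has a promoter for 4 of the 6 genes, and the authors' counts use build mm39. Each line is the 250 bases before the annotated start, on the strand of the gene, in lower case, with matches to 3 motifs in capitals.

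The Otol1 sequence lies at chr3:70007363-70007612 on the plus strand, and the Otog sequence at chr7:46240737-46240986 on the plus strand.
Otol1: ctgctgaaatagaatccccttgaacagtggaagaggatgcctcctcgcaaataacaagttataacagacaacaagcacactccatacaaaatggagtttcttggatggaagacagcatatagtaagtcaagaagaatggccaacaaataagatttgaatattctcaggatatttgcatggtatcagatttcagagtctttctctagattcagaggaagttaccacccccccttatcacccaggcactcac
Otog: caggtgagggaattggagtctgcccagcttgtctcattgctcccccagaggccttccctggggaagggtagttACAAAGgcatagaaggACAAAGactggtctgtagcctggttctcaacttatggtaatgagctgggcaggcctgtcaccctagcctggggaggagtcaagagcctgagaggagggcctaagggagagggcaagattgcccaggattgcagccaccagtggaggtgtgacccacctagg

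The motifs searched on both strands were ACAAT, the core of SOX sites, ACAAAG, a form shared by SOX and TCF/LEF sites, and TAATCC, the OTX site. In the sequences shown, no base matched more than 1 of them. ACAAAG occurs 2 times in the Otog sequence, and none of the 3 motifs occurs in the Otol1 sequence. Among 32851 promoter windows of the same length in that table, 27.66% held ACAAT, 16.46% held ACAAAG and 6.25% held TAATCC. A match is a description of the letters, not evidence of binding.

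Counts are unique molecular identifiers (UMIs), 1 per captured transcript, and levels are CPM, the counts of a gene per 1e6 UMIs of the same group of cells. Barcodes passed as cells with 1000 or more detected genes and no more than 10% of UMIs from mitochondrial genes. They numbered 6564 to 11018 per library, with median depths of 15508.5 to 20418.5 UMIs. Otic cells were those with at least 1 UMI of the epithelial gene Epcam and at least 2 UMIs in sum of Fbxo2, Hmx2, Hmx3 and Pax2, which gave 2778 cells in CD, 2537 in WT 1 and 4083 in WT 2. All 14 otic markers were detected in these cells in each library, with a summed level of 1925 to 1970 CPM. The erythroid marker list summed to 5323, 2995 and 5416 CPM in the same cells, and its part in the results was not tested. Mesenchyme, defined by at least 2 UMIs of Prrx1 and Twist1 with no Epcam UMI, numbered 1860, 1083 and 2508 cells. Libraries shared 28 to 55 cell barcodes pairwise, at most 0.492% of a library.

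Oc90 was the matrix gene that separated the libraries most. Its level in otic cells was 81.1 CPM in CD, 527 CPM in WT 1 and 981 CPM in WT 2. The WT libraries lay well apart, with a mean of 754 ± 321 CPM (SD, n = 2), and the CD value lay below both, at 10.8% of that mean. The fitted log2 fold change, CD against WT, was -3.27 (SE 0.34), and it was -3.67 without WT 1 and -2.76 without WT 2.

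Otol1 stood at 22.1 CPM in CD, 46.7 CPM in WT 1 and 45.4 CPM in WT 2. Here the WT libraries lay close together, at 46.0 ± 0.9 CPM (SD, n = 2), and CD had 48.0% of their mean, with a log2 fold change of -1.11 (SE 0.15). Otogl was at 1.84, 5.90 and 7.59 CPM in the same order of libraries. CD had 27.3% of the WT mean of 6.75 ± 1.20 CPM (SD, n = 2) for this gene, and the log2 fold change was -1.93 (SE 0.28). Its relative Otog was at 3.94, 5.88 and 8.41 CPM, against a WT mean of 7.15 ± 1.79 CPM (SD, n = 2). The difference was smaller for Otog, with a log2 fold change of -0.92 (SE 0.28).

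The tectorin genes were hardly transcribed in the otic cells. Tecta gave 12 UMIs in CD, 31 in WT 1 and 41 in WT 2, which is 0.169, 0.419 and 0.461 CPM, and its log2 fold change was -1.43 (SE 0.61). In mesenchyme Tecta gave 2, 4 and 1 UMIs, or 31.8%, 41.96% and 5.32% of the otic level of the same library. With 95% exact intervals of the mesenchymal count these ratios reach up to 115%, 107% and 29.7%. The error of the otic counts is not in them, so they are too narrow. In CD and WT 1 the otic Tecta level was thus not told apart from the mesenchymal one. Tectb gave 0 UMIs in the otic cells of every library, which allows a level of up to 0.0422 CPM in CD, 0.0406 CPM in WT 1 and 0.0337 CPM in WT 2. It had too few counts to be fitted. Outside the otic cells Tectb gave 1, 0 and 2 UMIs in mesenchyme and 1, 3 and 2 UMIs in neurons, too few to set a level.

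**Figure D1:**
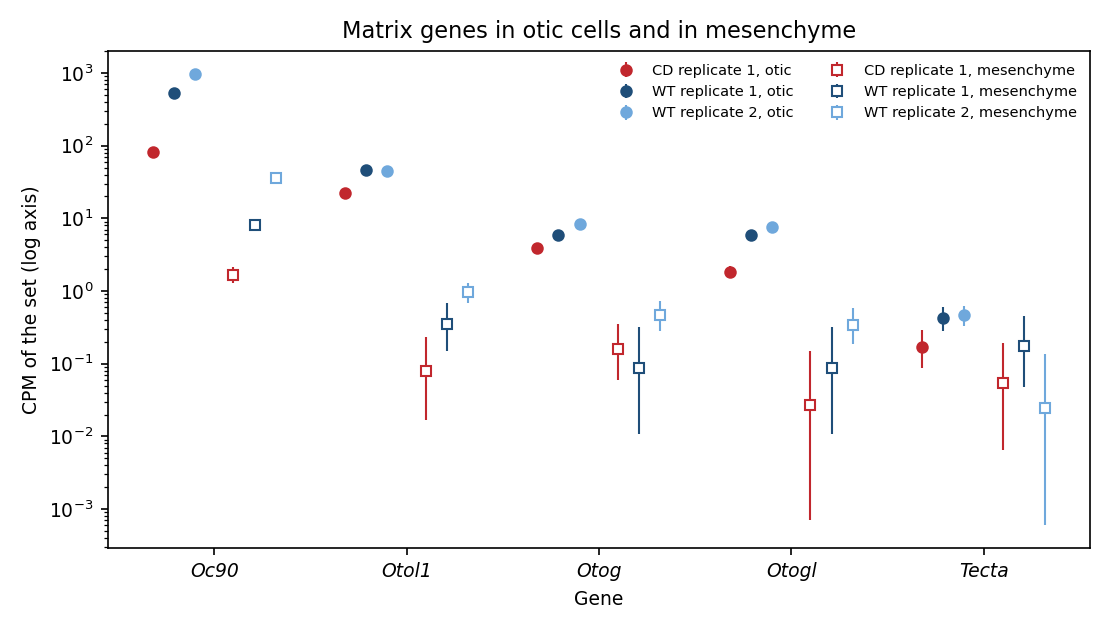
Level of 5 matrix genes in otic cells (filled circles) and mesenchyme (open squares) of each library, in CPM on a log axis, with 95% exact Poisson intervals that cover counting error only. The CD library lies below both WT libraries for each gene in otic cells; Tectb is not drawn because it has 0 UMIs there.

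In the fit across genes, 0.0932% of 17161 genes passed an adjusted p of 0.05 (edgeR quasi-likelihood test with Benjamini-Hochberg adjustment), 0.0758% of them with the lower level in CD. All 5 fitted members were lower in CD than in both WT libraries, as were 29.8% of all genes fitted. Since the set was proposed with this contrast known, nothing is read from these counts. The fit has 1 CD library and 1 residual degree of freedom, and the CD library is assumed to vary like WT.

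In mesenchyme the levels were low. There, Oc90 was at 1.66 CPM in CD, 8.14 CPM in WT 1 and 36.3 CPM in WT 2. These are 2.05%, 1.54% and 3.70% of the otic level of the same library. The same ratio for 7 other otic genes (Fbxo2, Hmx2, Hmx3, Pax2, Pax8, Lmx1a and Bricd5) ranged from 0.633% to 3.53% in CD, from 0.402% to 3.38% in WT 1 and from 2.30% to 5.11% in WT 2. Fbxo2, Hmx2, Hmx3 and Pax2 define the otic cells. Among Pax8, Lmx1a and Bricd5, which had no part in that rule, the ratio was 0.918% to 3.53% in CD, 0.744% to 3.38% in WT 1 and 3.81% to 5.11% in WT 2. The Oc90 ratio lay within the range of these 3 genes in CD and WT 1 and just below it in WT 2. That range is loose, since Pax8 had 3, 1 and 7 mesenchymal UMIs and Bricd5 had 6, 7 and 31. Among the defining genes, Hmx2, Hmx3 and Pax2 had lower ratios than Oc90 in every library. They were at 0.633% to 1.14% in CD, 0.402% to 0.759% in WT 1 and 2.30% to 2.60% in WT 2. The exact intervals of the Oc90 ratio, from the mesenchymal count, were 1.57% to 2.63%, 1.33% to 1.78% and 3.51% to 3.89%. Fbxo2 had higher ratios, at 2.91%, 2.54% and 3.83%. Mesenchyme is used here as the measure of free RNA in the droplets.

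For Otol1 the mesenchymal level was 0.364%, 0.754% and 2.11% of the otic level. The lowest value rests on 3 UMIs, with a 95% exact interval of 0.0751% to 1.06% from the mesenchymal count. The WT 2 value has an interval of 1.50% to 2.88% from the same kind of count. Otog and Otogl had 1 to 19 mesenchymal UMIs per library, so that their ratios, from 1.46% to 5.54%, are loose.

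**Figure D2:**
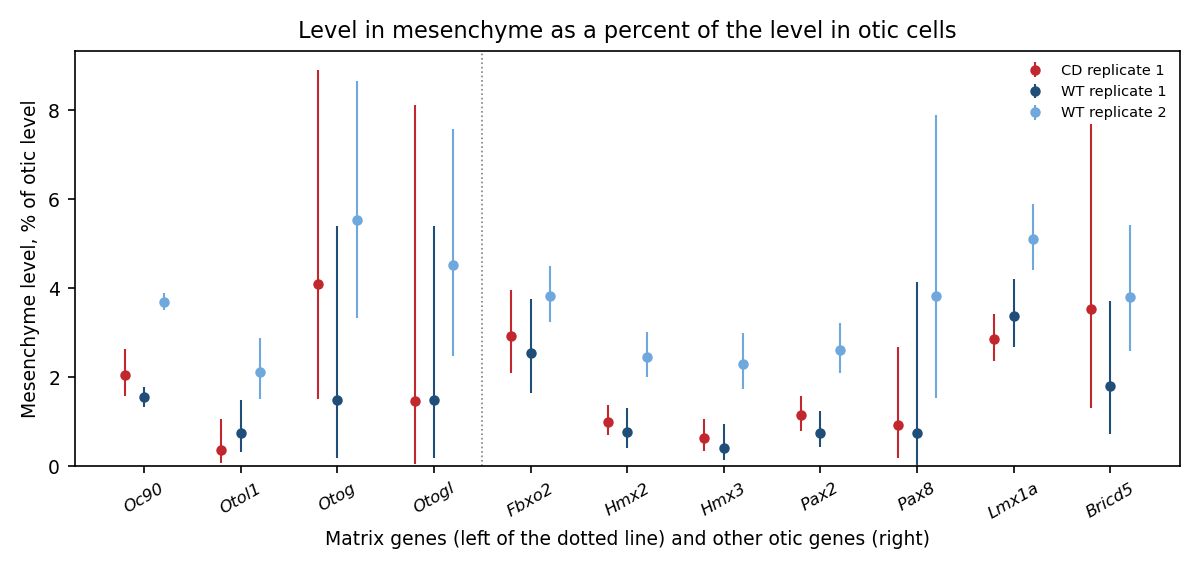
Level in mesenchyme as a percent of the otic level of the same library, for 4 matrix genes and 7 other otic genes, with 95% exact Poisson intervals of the mesenchymal count. Oc90 is at 1.54% to 3.70%, Fbxo2, Hmx2, Hmx3 and Pax2 also define the otic cells, and WT 2 has the highest ratio of the libraries for each gene drawn.

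In 5 other classes, each defined by its own markers with no Epcam UMI, Oc90 was likewise highest in WT 2 and lowest in CD. Neurons had 1.42, 8.86 and 39.0 CPM, endothelium had 0.513, 7.71 and 27.0 CPM, and erythroid cells had 1.37, 4.94 and 19.4 CPM. The neural tube cells, 70, 135 and only 6 in number, had 5.35, 7.96 and 49.1 CPM, and macrophages had 2.37, 5.15 and 26.1 CPM. In both WT libraries the level was higher in neurons than in erythroid cells, with 95% exact Poisson intervals of 6.90 to 11.2 against 3.51 to 6.76 CPM in WT 1 and 35.0 to 43.4 against 16.3 to 23.0 CPM in WT 2. These are shares of unlike totals, since the median depth in WT 1 was 14505 UMIs in neurons and 38093 UMIs in erythroid cells. As counts, WT 1 gave 69 Oc90 UMIs in 496 neurons and 39 in 202 erythroid cells. CD gave 15 in 673 neurons and 15 in 273 erythroid cells. Levels per cell were not compared, and no test over libraries was made between these classes.

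A further class had an Epcam UMI and at least 2 UMIs of the surface markers Trp63, Krt5, Krt14, Krt15 and Wnt6, and did not meet the otic rule. Its otic markers summed to 1282 to 1496 CPM, so it cannot be taken as surface ectoderm. Oc90 was at 77.7, 346 and 626 CPM in it, while Otol1 was at 2.20, 6.12 and 5.04 CPM. The Oc90 levels were of the order of the otic ones of the same libraries, and the Otol1 levels were well under the otic ones in all 3.

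How many otic cells carried the transcripts was compared after each cell had been thinned to 5000 UMIs, which left out 44, 20 and 111 otic cells. An Oc90 UMI was found in 16.4% of CD cells, 51.8% of WT 1 cells and 64.0% of WT 2 cells. Without thinning the shares were 31.0%, 73.3% and 82.0%, at median depths of 22616.5, 25431 and 18752 UMIs. The shares in thinned mesenchyme, used here as the measure of free RNA, were 0.758%, 3.28% and 16.5%. Its unthinned median depths were 18648.5, 19682 and 15738 UMIs. Whether Oc90 UMIs in mesenchyme have other sources was not tested.

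The cells that did have Oc90 also held fewer of its transcripts in CD. Among thinned otic cells with a UMI, the mean was 2.93 UMIs in CD, 5.73 in WT 1 and 8.20 in WT 2. Cells with 20 or more Oc90 UMIs made up 0.219%, 2.23% and 7.08% of the otic cells. The tenth of cells richest in Oc90 held 86.6% of its UMIs in CD, 54.1% in WT 1 and 47.3% in WT 2. The share of Oc90-positive cells and the Oc90 UMIs per positive cell were thus both lower in CD. At a fixed depth each of these values falls with the level of the gene, as does the spread of UMIs over cells. They therefore describe the level difference given above and are not separate results. A cell with a UMI may hold free RNA only, so these are not counts of expressing cells.

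For Otol1 the shares at equal depth were 8.67%, 15.5% and 15.7%. At full depth they were 22.2%, 38.7% and 31.8%. In mesenchyme 0 of 1716 thinned CD cells and 0 of 1005 thinned WT 1 cells had an Otol1 UMI, which allows up to 0.175% and 0.299%, and 0.557% of WT 2 cells did. Positive cells held 1.39, 1.49 and 1.53 Otol1 UMIs on average. At this depth that mean is near its floor of 1, so a difference in transcripts per positive cell could hardly show.

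Otog was found in 1.79%, 2.50% and 4.15% of thinned otic cells and Otogl in 0.914%, 2.42% and 3.45%. Their unthinned shares were 8.42%, 13.7% and 14.2% for Otog and 3.74%, 10.8% and 10.2% for Otogl. In mesenchyme the thinned shares were at most 0.232% for Otog and 0.186% for Otogl. Positive cells held close to 1 UMI of these genes.

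**Figure D3:**
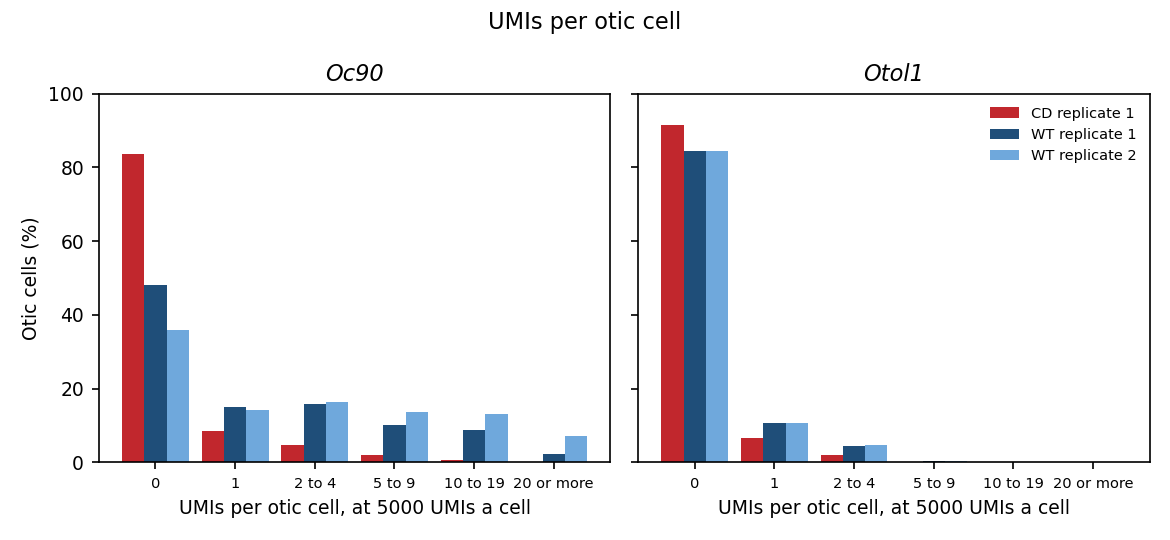
Percent of otic cells with the given number of UMIs of Oc90 (left) and Otol1 (right) at 5000 UMIs a cell, by library. Cells without an Oc90 UMI make up 83.6% of CD, 48.2% of WT 1 and 36.0% of WT 2; for Otol1 they make up 91.3%, 84.5% and 84.3%.

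In each library, Otol1 transcripts were found less often in otic cells with an Oc90 UMI than in those without it. In CD, 1.56% of Oc90-positive otic cells had an Otol1 UMI, against 10.1% of Oc90-negative ones. The shares were 7.20% and 24.3% in WT 1, and 8.45% and 28.6% in WT 2. Otog went the other way with Otol1, being found in 4.22%, 5.40% and 8.65% of Otol1-positive cells and in 1.56%, 1.97% and 3.31% of the rest. All of these shares are at equal depth, and cells of 1 library are not replicates, so no test was made over cells. A cell without a UMI at this depth may still hold the transcript, so the shares do not show how many cells hold both.

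The otic cells were compared in 5 splits, each between cells with and without a UMI of a splitting gene. The splits group cells by a transcript, and position in the otic vesicle was not measured. Otx1 and Otx2 (summed) and Gbx2 are homeobox genes that pattern the otic vesicle, Isl1 is a LIM homeobox gene of its neural and sensory territory, Rdh10 makes retinaldehyde for retinoic acid synthesis, and Rorb is a nuclear receptor gene. The UMIs of each side were summed per library, and the sides were compared with the library as a block. Cells with the splitting gene were deeper in each split of every library, for example 26936 against 21545 UMIs at the median for Otx1 and Otx2 in CD. The splits share cells, with Rdh10 found in 55.39% of Gbx2-positive CD cells.

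Otogl showed the widest split among the members. With cells that had a UMI of either Otx gene called Otx-positive, it was at 5.21 CPM in Otx-positive and 0.730 CPM in Otx-negative cells of CD, at 13.2 and 2.38 CPM in WT 1, and at 18.2 and 3.33 CPM in WT 2. Each Otx-positive value was 5.47 to 7.14 times the Otx-negative value of its library. The log2 fold change was 2.52 (SE 0.10), with an adjusted p of 2.396e-06 (edgeR, 3 of 3 libraries higher). At this threshold 23.6% of 15844 genes were called in the Otx split.

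Otol1 was distributed in the opposite way. Its Otx-positive against Otx-negative levels were 10.7 against 25.9 CPM in CD, 24.6 against 57.2 CPM in WT 1, and 19.4 against 55.9 CPM in WT 2. It fell by 1.35 on the log2 scale in Otx-positive cells (SE 0.06, edgeR adjusted p 4.752e-06). Oc90 was moderately higher in Otx-positive cells, with 89.1 against 78.4 CPM in CD, 680 against 454 CPM in WT 1 and 1359 against 828 CPM in WT 2. The log2 fold change of Oc90 was 0.51 (SE 0.08, edgeR adjusted p 0.00287). Otog fell by 0.43 in Otx-positive cells (SE 0.11, edgeR adjusted p 0.02548). This Otog call was lost in 6 of 13 alternatives, with adjusted p up to 0.681, among them the fits without WT 1 (adjusted p 0.126) and without WT 2 (adjusted p 0.184).

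In the Rorb split, in which 15.5% of 15928 genes were called, Oc90 and Otol1 were again opposed, but with the directions exchanged. Oc90 was at 35.8 CPM in Rorb-positive and 91.1 CPM in Rorb-negative cells of CD, at 216 and 601 CPM in WT 1, and at 579 and 1103 CPM in WT 2. It fell by 1.23 on the log2 scale (SE 0.08, edgeR adjusted p 6.194e-07). Otol1 was at 39.8 against 18.2 CPM in CD, 72.9 against 40.4 CPM in WT 1 and 67.0 against 38.8 CPM in WT 2. It rose by 0.90 (SE 0.06, edgeR adjusted p 7.566e-07). Otog and Otogl had values of 0.09 (SE 0.13) and 0.08 (SE 0.16) in this split and did not pass the test.

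The Gbx2 split called 32.2% of genes, and Otogl, Oc90 and Otol1 all fell in Gbx2-positive cells. Otogl was at 0.830 against 2.44 CPM in CD, 2.24 against 7.86 CPM in WT 1 and 2.25 against 9.18 CPM in WT 2. Its fitted difference was -1.86 (log2, SE 0.13, edgeR adjusted p 4.072e-06). Oc90 had -0.67 (SE 0.05, edgeR adjusted p 1.052e-05) and Otol1 -0.50 (SE 0.06, edgeR adjusted p 0.000135). Otog had -0.18 (SE 0.13) and did not pass. Tecta had 0.97 (SE 0.34, edgeR adjusted p 0.05206), from 5, 18 and 15 UMIs in Gbx2-positive cells, and missed the threshold.

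Isl1-positive cells, in a split with 24.4% of genes called, had more Otol1, by 0.33 (SE 0.04, edgeR adjusted p 0.0003153). They had less Oc90, with -0.30 (SE 0.05, edgeR adjusted p 0.001628), and less Otogl, with -0.69 (SE 0.12, edgeR adjusted p 0.002896). Rdh10-positive cells, with 38.6% of genes called, had less Otol1, with -0.56 (SE 0.04, edgeR adjusted p 2.807e-07). Their Oc90 value was -0.21 (SE 0.06, edgeR adjusted p 0.008694) and their Otogl value -0.28 (SE 0.10, edgeR adjusted p 0.04398). The Oc90 call in the Rdh10 split was lost in 3 of 13 alternatives, without the library block (adjusted p 0.953), with DESeq2 (adjusted p 0.199) and with cells thinned before sorting (adjusted p 0.323). The Otogl call in that split was lost with the same direction in 6 of 13 alternatives, among them without CD (adjusted p 0.0953) and without WT 1 (adjusted p 0.197), and the value turned to 0.023 with thinned cells. Otog passed in neither split. Tecta passed in none of the 5.

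**Figure D4:**
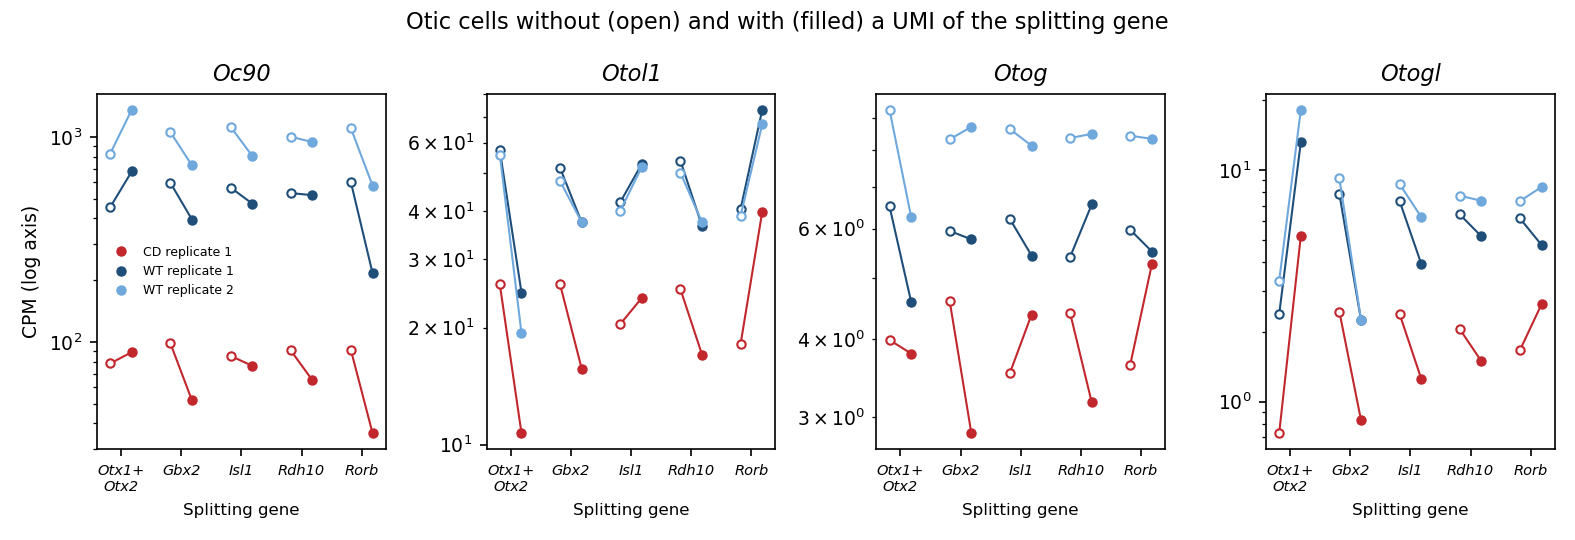
Level of 4 matrix genes in otic cells without (open) and with (filled) a UMI of the splitting gene, in CPM on a log axis, 1 line per library. Otogl rises and Otol1 falls from Otx-negative to Otx-positive cells in all 3 libraries, and Oc90 falls and Otol1 rises from Rorb-negative to Rorb-positive cells.

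Cells that held UMIs of only 1 of the splitting genes form sets that share no cells. Otol1 was highest in those with Rorb alone, at 75.7, 83.2 and 81.3 CPM, and lowest in those with Otx alone, at 3.77, 10.6 and 11.6 CPM. The Rorb value of CD comes from 43 cells and 79 UMIs and has a 95% exact Poisson interval of 60.0 to 94.4 CPM. Otogl was highest with Otx alone, at 7.78, 19.1 and 22.5 CPM, and with Gbx2 alone it was at 0.576, 2.17 and 1.72 CPM. In both WT libraries Oc90 was highest with Otx alone, at 921 and 1845 CPM, and lowest with Rorb alone, at 256 and 569 CPM. In CD the Otx value was 73.8 CPM, and the highest level, 192 CPM, was in the 433 cells with none of the splitting genes. Between these ends the WT values of Oc90 for neighbouring sets overlapped, with 741 and 1203 CPM for Rdh10 alone, 717 and 1212 CPM for none of the genes, 483 and 853 CPM for Isl1 alone and 361 and 633 CPM for Gbx2 alone. Not every split kept its direction in these sets. Oc90 with Otx alone was at 73.8, 921 and 1845 CPM, against 78.4, 454 and 828 CPM in all cells without Otx. It was thus the higher value in both WT libraries but not in CD, where its 95% exact Poisson interval was 65.9 to 82.5 CPM. Otol1 with Gbx2 alone was at 22.1, 54.0 and 67.2 CPM, against 25.9, 51.7 and 47.8 CPM in all cells without Gbx2, so that it was the higher value in both WT libraries. Oc90 with Rdh10 alone was at 96.6, 741 and 1203 CPM, against 90.9, 532 and 1002 CPM in all cells without Rdh10, and was the higher value in all 3. Otol1 with Rdh10 alone was at 29.2, 59.7 and 46.3 CPM, against 25.2, 53.9 and 50.2 CPM without Rdh10, and was the lower value only in WT 2.

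The genotype difference in Oc90 was present on both sides of every split. Within the 10 sides its fitted level in CD was between 8.48 and 11.9 times lower than in WT. For Otol1 the range was 1.84 to 2.46 times lower, for Otogl 2.64 to 4.35 times and for Otog 1.39 to 2.64 times. In cells with Rorb alone, Otol1 was at 75.7 CPM in CD, against 83.2 and 81.3 CPM in WT. Otogl was there at 3.84 CPM in CD, from 4 UMIs, against 0.655 and 0.805 CPM in WT. In the other sets that share no cells, both genes were lower in CD than in each WT library. These values repeat the contrast behind the choice of the genes and are given without a test.

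Whether the genotype difference was the same on both sides was tested as an interaction. The genes and the splits were both named with genotype results of these libraries known. The single CD library is assumed to vary like WT, so that the p-values rest mainly on spread shared across genes. For Oc90 the Otx interaction was called, with a CD-against-WT value that was lower in Otx-positive than in Otx-negative cells, the difference being -0.48 on the log2 scale (SE 0.06, edgeR adjusted p 0.005369). The ratio of the Otx-positive to the Otx-negative Oc90 level was 1.14 in CD, 1.50 in WT 1 and 1.64 in WT 2. The interaction was -0.42 in the Rdh10 split (SE 0.07, edgeR adjusted p 1.164e-06), where the ratios were 0.715 in CD, 0.977 in WT 1 and 0.942 in WT 2. In the Gbx2 split it was -0.36 (SE 0.07, edgeR adjusted p 0.04206), with ratios of 0.525, 0.661 and 0.687. Over all otic cells the splitting genes had genotype log2 fold changes of -1.04 (SE 0.17) for Otx2, 0.11 (SE 0.16) for Otx1, -0.35 (SE 0.20) for Rdh10 and 0.57 (SE 0.19) for Gbx2. The part of these differences in the interactions was not tested.

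For Isl1 the Oc90 interaction was 0.20 (SE 0.07, edgeR adjusted p 0.5034) and for Rorb -0.17 (SE 0.15, edgeR adjusted p 1), and neither passed. The background of interaction calls was 0.402% of genes for Otx, 1.03% for Rdh10, 0.208% for Gbx2, 0.516% for Isl1 and 0.465% for Rorb. None of the other members passed in any split, Otol1 having 0.29 (SE 0.11, edgeR adjusted p 0.676) for Rorb. Oc90 was not alone in its direction among the genes followed. In the Rdh10 split the interaction was -0.36 for Car2, -0.63 for Bricd5 and -0.86 for Pax8, while Noxo1 had 0.44. In the Gbx2 split it was -0.40 for Sparc and -0.47 for Col9a3, while Sparcl1 had 0.60. The interaction test has 1 residual degree of freedom and borrows its spread from other genes. Thinning the cells before they were sorted into sides ended the Otx and the Rdh10 calls (adjusted p 0.254 and 0.93). The looser cell filter also ended the Otx call (adjusted p 0.0903), and 5 of 8 alternatives ended the Gbx2 call.

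**Figure D5:**
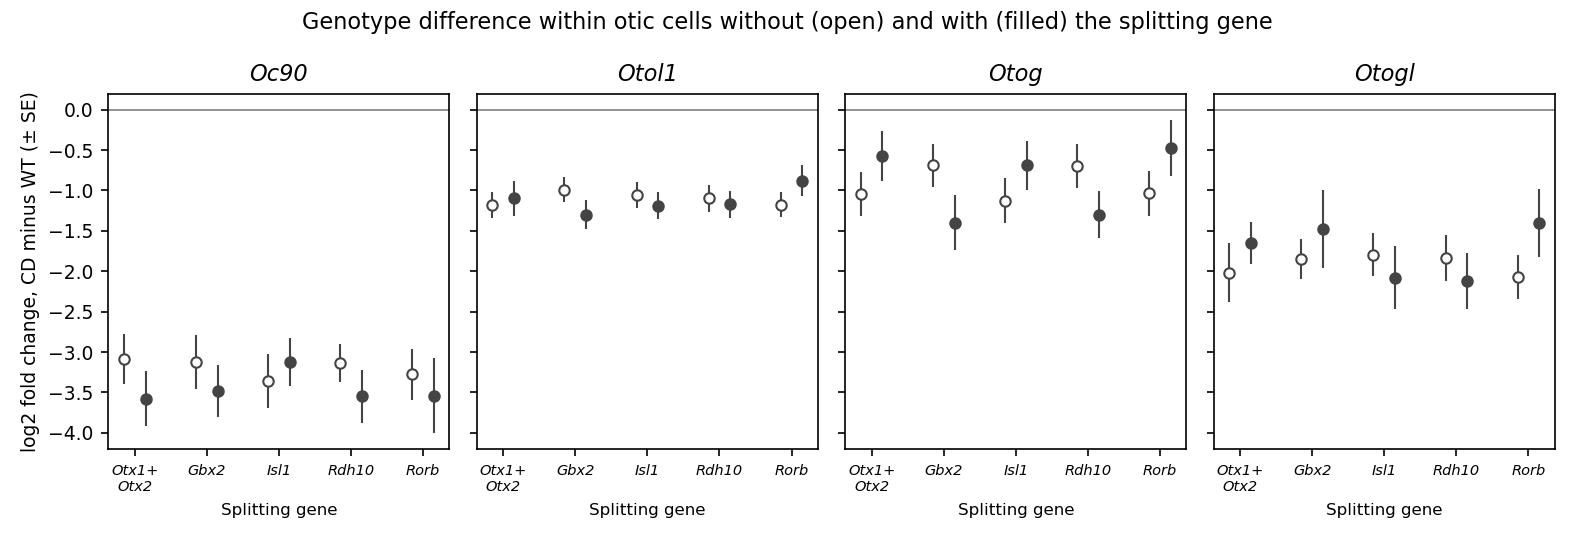
Fitted log2 fold change of CD against WT (± SE) within otic cells without (open) and with (filled) each splitting gene, for 4 matrix genes. All values lie below 0, and for Oc90 those of Otx-, Gbx2- and Rdh10-positive cells lie below those of the cells without the gene.

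Other genes of otoconia formation were followed as a list of 10, of which 9 were fitted (Otop1, a proton channel gene needed for otoconia, had at most 0.0337 CPM). None passed in the genotype contrast, in which 16 of 17161 genes passed and 700 had an unadjusted p under 0.05. The median log2 fold change of the list was -0.58, against 0.00 over all genes. Slc26a4, an anion exchanger gene of the endolymphatic epithelium, had -2.44 (SE 0.61), from 0.113, 0.568 and 0.618 CPM, without passing.

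In the Otx split 2 of the 9 rose and 6 fell, where 12.2% of all genes rose and 11.4% fell, with a list median of -0.44 against 0.01 over all genes. Those that rose were Atp2b2, a plasma membrane calcium pump gene, and Sparcl1, a matricellular protein gene. Atp2b2 was at 10.2 against 3.09 CPM in CD, 18.2 against 3.00 CPM in WT 1 and 20.7 against 3.78 CPM in WT 2. Its log2 fold change was 2.30 (SE 0.15, edgeR adjusted p 2.391e-05), and that of Sparcl1 was 1.29 (SE 0.06, edgeR adjusted p 5.106e-06). Atp2b2 and Otogl were thus both higher in Otx-positive cells in all 3 libraries.

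The NADPH oxidase genes of the list followed Rdh10 instead. Nox3, the catalytic subunit without which otoconia do not form, gave 20, 23 and 65 UMIs in Rdh10-positive cells and 0, 0 and 3 UMIs in Rdh10-negative cells of CD, WT 1 and WT 2 (edgeR adjusted p 2.937e-06). Foxi1, a forkhead gene of the endolymphatic duct, gave 12, 24 and 61 UMIs against 1, 4 and 0 (edgeR adjusted p 5.176e-05). Noxo1, the organiser of the oxidase, was at 13.6 against 3.88 CPM in CD, 12.6 against 4.76 CPM in WT 1 and 17.9 against 6.93 CPM in WT 2. It rose by 1.44 (SE 0.09, edgeR adjusted p 7.232e-08), and Cyba, the membrane partner of the oxidase, by 0.56 (SE 0.05, edgeR adjusted p 2.096e-06). In all, 5 of the 9 rose and 2 fell with Rdh10, where 19.3% of all genes did either, with a median of 0.42 against 0.00 over all genes. Otol1 fell in this split, and Oc90 fell by less, with positive-to-negative ratios of 0.715 in CD, 0.977 in WT 1 and 0.942 in WT 2. The Oc90 call was lost in 3 of 13 alternatives. In cells with Rdh10 alone, neither gene was lower in every library than in all cells without Rdh10.

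Among Gbx2-positive cells 5 rose and 3 fell, where 17% of all genes rose and 15.2% fell, with a median of 0.63 against 0.00 over all genes. Those that rose were Nox3, Foxi1, Noxo1, Cyba and Car2, a carbonic anhydrase gene (1.06, SE 0.04, edgeR adjusted p 1.047e-07). With Isl1 2 rose and 5 fell, at a median of -0.51 against 0.01, where 12.5% of all genes rose and 11.9% fell. With Rorb 2 rose and 5 fell, at a median of -0.31 against 0.01, where 7.1% of all genes rose and 8.43% fell. Those that rose were Sparcl1 (0.63, SE 0.07, edgeR adjusted p 6.128e-05) and Slc26a4 (1.48, SE 0.36, edgeR adjusted p 0.0143).

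Of 10 other genes of acellular membranes, 8 were fitted, and Ceacam16 and Strc had at most 0.0281 CPM. None passed in the genotype contrast (median -0.27 against 0.00 over all genes), Col9a3 having -1.18 (SE 0.18) from 47.7, 91.2 and 117 CPM. In the Otx split 3 rose, the collagen genes Col9a1, Col9a2 and Col2a1, and 3 fell, Col9a3, Col11a1 and Col11a2, with a median of -0.28 against 0.01, where 12.2% of all genes rose and 11.4% fell. In the Rdh10 split 5 rose and 1 fell (median 0.15 against 0.00), where 19.3% of all genes did either. Col11a2, a fibrillar collagen gene of the tectorial membrane, rose most, from 2.19 to 9.88 CPM in CD, from 3.04 to 11.04 CPM in WT 1 and from 2.48 to 13.5 CPM in WT 2. Its log2 fold change was 2.11 (SE 0.11, edgeR adjusted p 1.713e-08). With Gbx2 3 rose and 3 fell (median 0.13), with Isl1 0 rose and 3 fell (median -0.17), and with Rorb 1 rose and 3 fell (median -0.09), and the all-gene medians were 0.00, 0.01 and 0.01. Over all genes 17% rose and 15.2% fell with Gbx2, 12.5% and 11.9% with Isl1, and 7.1% and 8.43% with Rorb. Otoa, the otoancorin gene, passed in none of the 5 splits.

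The genes with the pattern most like that of each member were found by Pearson's r of log2(CPM + 1) over 41 points, from 14 classes and otic subsets in 3 libraries with at least 50 cells each. The search covered 10273 genes of at least 5 CPM in otic cells. For Oc90 they were Bricd5 (0.94), BC006965 (0.93) and Col9a3 (0.92). Those of Otol1 were Fam107a (0.95) and the homeobox genes Hmx3 (0.95) and Hmx2 (0.94). Otog was most like Myo5c, Fam187b and Arg2 (0.95 each), and Otogl most like Cnmd, Fam107a and Cemip (0.92 each). The points share libraries, and the otic subsets share cells, so r is a description of these sets. Hmx2 and Hmx3 also define the otic cells.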

How the data were processed

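Libraries were made with the Chromium 3' kit, version 3.1, per the labels' protocols, and processed with Cell Ranger 6.0 and build mm39, per the submitters' processing notes. The authors deposited raw UMI counts for each feature and barcode, without normalisation, with totals of 157373393 to 202584468 UMIs per library. The authors' deposited barcodes numbered 8330 to 16649 per library.

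Cells were kept at 1000 genes and 10% mitochondrial UMIs and sorted by the rules given in the results. Doublets were kept in the main analysis; Scrublet (scanpy 1.11.5, expected rate 5%) called 2.80% to 3.39% of kept cells, and 4.26% to 5.78% of otic cells. UMIs were summed per library and group of cells and tested with edgeR 4.0.16 (R 4.3.3; TMM scaling, filterByExpr, quasi-likelihood test) over the whole table. P-values were adjusted by the Benjamini-Hochberg method, and genes under 0.05 were called. The genotype model was group alone. The split model was library plus split, and the interaction model added the product of split and genotype. SE is the log2 difference over the root of the F statistic. Medians of the prior degrees of freedom were 8.75 for the genotype, 5.97 to 10.2 for the splits and 10.1 for the Otx interaction, so p-values rest mainly on spread shared across genes, and for the Rdh10 interaction wholly so. The script was tested on simulated data. With a log2 change of 1, it recovered 77.6% of 98 changed genes for the genotype among 16882, 86% of 100 for the Otx split among 15631 and 39% of 100 for the Otx interaction among 16072.

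The members and lists were chosen with earlier results of these data known. Named genes are the 6 members, members of the lists that passed in a split, and the 3 genes most like each member. List genes that are named without passing were picked with their values in view. The labels do not say whether the WT pools came from different litters. The p-values therefore measure only how these libraries vary, which may be technical variation. The WT otic sums differed by far more than sampling noise (chi-square of 55.5 per degree of freedom, 17977 genes). With 1 library against 2, no permutation test can reach the threshold. Intervals are at 95% and cover counting error only, and a limit at 0 is 3 counts. The levels in 1 class of cells outside the otic epithelium are not reported here. Alternatives were other scaling, filters, gates, depths, doublet removal, DESeq2 1.42.0, the fit without the block and leaving out each library.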

Additional observations from a re-analysis of the deposited data

Results flagged for a closer look

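For Oc90 the interaction test of edgeR, which has 1 CD library, called a difference between the 2 sides in 3 splits of the otic cells. The difference in CD-against-WT values between the sides was -0.48 for Otx on the log2 scale (adjusted p 0.005369, range over 8 alternatives 8.5e-15 to 0.254), for Rdh10 -0.42 (adjusted p 1.164e-06, range 6.52e-07 to 0.93) and for Gbx2 -0.36 (adjusted p 0.04206, range 0.000158 to 0.881). The direction was the same in each alternative for these 3 splits, but the call was lost in 2 of 8 for Otx, in 1 of 8 for Rdh10 and in 5 of 8 for Gbx2. Over all otic cells Otx2 itself was at -1.04 (log2, SE 0.17) in CD against WT, and its part in the Otx result was not tested. Rdh10 was found in 55.39% of Gbx2-positive CD cells, so that those splits are not independent of each other.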

How the results depend on the processing

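With 1 CD library the genotype fit cannot be checked by leaving CD out. No paired analysis was possible for the genotype because the labels pair no CD library with a WT library. The genotype log2 fold change kept its sign in all alternatives run for each fitted member; without 1 WT library it was -3.67 to -2.76 for Oc90, and the range over 12 alternatives was the same for Oc90 and -1.15 to -0.98 for Otol1. The count of genes called for the genotype, 16, is unstable: 155 with no filter, 56 with DESeq2, 28 with thinned cells, 10 with a stricter otic gate, 8 with a looser cell filter, and 6 each without doublets and without cells with neuronal UMIs.

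Without the replicate block (library), calls in the splits were lost: in the Otx split Oc90 had 0.65 (adjusted p 0.872) and Otol1 -1.34 (adjusted p 0.0922), and in the Rorb split Oc90 had -1.11 (adjusted p 0.812) and Otol1 0.88 (adjusted p 0.326). The block is the library from which both sides come. Genes called without it were 805 for Otx, 1112 for Gbx2, 590 for Isl1, 825 for Rdh10 and 253 for Rorb, against 3737, 5075, 3885, 6129 and 2474 with it. In the same order DESeq2 called 1853, 2662, 1701, 3361 and 1162, and thinning before sorting left 594, 799, 500, 2417 and 357. Leaving out 1 library gave 2265 to 2713 calls for Otx and 2264 to 3690 for Isl1.

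Genes called for the interaction were 66 for Otx, and 309 with no filter, 189 with 2 UMIs for a positive cell, 135 without neuronal cells, 6 with the looser filter and 7 when thinned. The Gbx2 count of 34 became 4 with RLE scaling, 156 with no filter, 100 with 2 UMIs, 18 without doublets, 115 without neuronal cells, 6 with the stricter gate, 18 with the looser filter and 5 when thinned. The Isl1 count of 85 became 327 with no filter, 175 with 2 UMIs, 150 without neuronal cells, 13 with the stricter gate, 160 with the looser filter and 3 when thinned. The Rdh10 count of 169 became 79 with 2 UMIs, 106 without neuronal cells and 3 when thinned. The Rorb count of 77 became 119 with RLE scaling, 125 without doublets and 1 when thinned.

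The values that reversed were small, or came from thinned cells, and none of them passed. Otog in the Gbx2 split had -0.34 to 0.00056 on leaving out a library and 0.030 when thinned. In the Isl1 split it had -0.12 to 0.064 on leaving out a library, 0.0050 with DESeq2, 0.084 with 2 UMIs and 0.11 without neuronal cells. In the Rdh10 split Otog had -0.21 to 0.081 on leaving out a library and Otogl 0.023 when thinned. In the Rorb split Otog had -0.049 to 0.18 on leaving out a library and -1.15 when thinned, and Otogl had -0.020 to 0.31, -0.078 with 2 UMIs and -0.85 when thinned. The Oc90 interaction with Rorb was 0.47 when thinned. Thinning before sorting leaves fewer otic cells and fewer UMIs in each. The cause of the other changes was not tested.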
